A study of Mus musculus with 11 samples.

Results

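The DNA replication machinery was followed as a list of 45 genes, matched by symbol and grouped by the step at which each acts. All 45 were present among the 20889 gene symbols of the liver expression table, and all 45 were among the 14240 genes that passed the filter on low values (at least 0.5 eRPKM in at least 3 livers). RNA-seq had been done on homogenized whole livers of C57BL/6 mice fed doxycycline, a drug that switches on tetracycline-controlled transgenes. All groups carried the ROSA26-rtTA-IRES-EGFP allele, which encodes the doxycycline-dependent activator. The 4 controls were labelled WT for the second allele and received doxycycline food for 7 days, and the induced mice carried tetYAP and received it for 3 days (4 livers) or 7 days (3 livers). The study's methods describe tetYAP as YAP S127A, a form of the transcriptional co-activator YAP that lacks an inhibitory phosphorylation site, and limit the activator to hepatocytes by Alb-CRE, whereas the whole organ was measured. Whether the controls carried Alb-CRE, and the age of the mice, are not given in the sources used here. No controls with 3 days of doxycycline were analysed here, so length of feeding and induction cannot be told apart at 3 days.

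Replication starts when the origin recognition complex, with CDC6 and CDT1, loads the MCM2 to MCM7 helicase on DNA in a step called licensing. In S phase the kinase CDC7 with its partner DBF4 fires origins, CDC45 and the GINS complex join the helicase, RPA coats the single strand, and polymerase alpha with its primase lays primers that polymerases delta and epsilon extend on the PCNA clamp. FEN1 and DNA ligase 1 seal the lagging strand, and CAF-1, UHRF1 and DNMT1 restore nucleosomes and DNA methylation behind the fork. Most adult hepatocytes are quiescent, and many of these genes are known targets of E2F factors, which act when a cell re-enters the cycle.

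Because E2F control is the textbook feature of the set, the RefSeq promoter windows of the members (250 bases before to 50 bases after each start, GRCm38.p6) were searched on both strands. A window was found for 37 of the 45 members. The E2F motif, taken as TTTGGCGC, TTTCGCGC, TTTCCCGC or TTTGCCGC, was present in 17 of the 37 members (45.9%), in 2.6% of the 27025 symbols of the promoter table and in 4.34% of the 10840 tested genes with a window. The CHR element (TTTGAA or TTCGAA) was present in 10 of 37 members (27.0%), in 21.7% of all symbols and in 16.7% of the tested genes with a window. For the CCAAT box these figures were 23 of 37 (62.2%), 41.1% and 42.7%. Overlapping matches were counted separately, and a match is a description of letters, not of a bound site. Mcm6 had the most E2F matches (3), and Mcm5, Mcm3, Mcm7, Dnmt1 and Rfc3 had 2 each. Mcm6 and, of those with 2 matches, Mcm5 and Mcm3, which had the largest 7-day changes, are shown 5′ to 3′ on the gene's strand with the matches in capitals. The Mcm6 stretch (chr1:128359706-128359955, minus strand) and the Mcm5 stretch (chr8:75109259-75109508, plus strand) are the 250 bases before the start, and the Mcm3 stretch (chr1:20820267-20820293, minus strand) is the 27 bases after its start that hold both of its matches.
Mcm6: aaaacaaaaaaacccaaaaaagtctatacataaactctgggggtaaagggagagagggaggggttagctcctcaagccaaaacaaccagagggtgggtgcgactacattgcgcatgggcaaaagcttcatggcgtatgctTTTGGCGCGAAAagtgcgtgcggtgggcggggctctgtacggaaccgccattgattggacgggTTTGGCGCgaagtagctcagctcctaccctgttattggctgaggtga
Mcm5: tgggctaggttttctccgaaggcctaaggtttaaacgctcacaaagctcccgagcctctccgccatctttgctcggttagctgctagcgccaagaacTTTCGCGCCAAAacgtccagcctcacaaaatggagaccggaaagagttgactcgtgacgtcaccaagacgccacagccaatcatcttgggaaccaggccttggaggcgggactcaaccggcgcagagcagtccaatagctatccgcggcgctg
Mcm3: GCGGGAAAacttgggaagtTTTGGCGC
In Mcm6 a pair of matches on opposite strands overlapped, beginning 110 and 106 bases before the start, and a further match began 47 bases before it. In Mcm5 the matches, also overlapping on opposite strands, began 153 and 149 bases before the start.

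Values are eRPKM, reads per kilobase of exon scaled to library size, as deposited, and 1 liver was 1 library. Reads on genes, recovered from the steps of the values, numbered 1250317 (control 4) to 5492182 per control library, 2658114 to 3679166 per 3-day library and 5309573 to 5937585 per 7-day library. By Xist and Ddx3y, controls 1 and 4 and 3-day livers 1 and 2 were male and all other livers female, so all 7-day livers were female. The labels of 3-day livers 1 and 4 and 7-day liver 2 carry a suffix MF whose meaning is not given. Symbols listed at 0 numbered 1613 in 7-day liver 2, 3501 and 2857 in controls 1 and 2, and 5084 to 6263 in the other livers, so these 3 libraries stand apart at low values. The mouse Yap1 row did not separate the groups (13.9 to 21.1 eRPKM in controls, 15.3 to 19.3 in 3-day livers, 17.4 to 19.01 in 7-day livers), and whether transgene reads fall on it is not stated. Hepatocyte markers were high throughout (6 of 6 found). Their summed eRPKM was 1342 to 3938 in controls and 963 to 1083 at 7 days, while that of 4 macrophage markers was 119 to 233 and 459 to 519. No marker found was at 0 in every liver of a group.

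After 7 days of YAP, 34 of the 45 members had risen and none had fallen (limma, a log2 fold change beyond 0.5 in size and an adjusted p under 0.01), against 18% of all 14240 tested genes called higher and 5.77% called lower. The median log2 fold change of the members was 1.76, beside 0.26 over all tested genes. In 42 members every 7-day liver lay above every control, as in 36.7% of all tested genes. The genes that rose came from all 9 functional groups, and the largest changes were those of Gins2 (4.27), Uhrf1 (3.94), Mcm5 (3.70), Lig1 (3.605) and Mcm2 (3.57). At 3 days no member was called, as few genes were at all (0.0421% of tested genes, higher). A total of 22 members were higher at an unadjusted p under 0.05 and none lower, against 7.86% of all tested genes higher and 4.21% lower, voom on the recovered reads also called 0, and the median was 0.73 (0.02 over all tested genes). In whole liver, fewer cells of a type and less RNA per cell cannot be told apart, and the rise in macrophage markers at 7 days, when 3 of their 4 tested genes were called, and the fall of 3 of 6 hepatocyte markers moved with these values. The part of cell composition was not tested. The 7-day count was 20 among female livers, where 10.7% of all tested genes were called higher, 12 with sequencing depth, which differs between the groups, as a covariate (7.72%), and 22 without 7-day liver 3 (11.1%). It was 29, 29 and 31 without 7-day liver 2, control 1 and control 2 (11.7%, 14.6% and 17.2%). The 12 members that kept their call with depth in the fit (Cdt1, Mcm3, Mcm6, Mcm7, Gins2, Cdc7, Dbf4, Prim1, Pole2, Pcna, Rfc4 and Fen1) were called in every alternative fit.

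**Figure D1:**
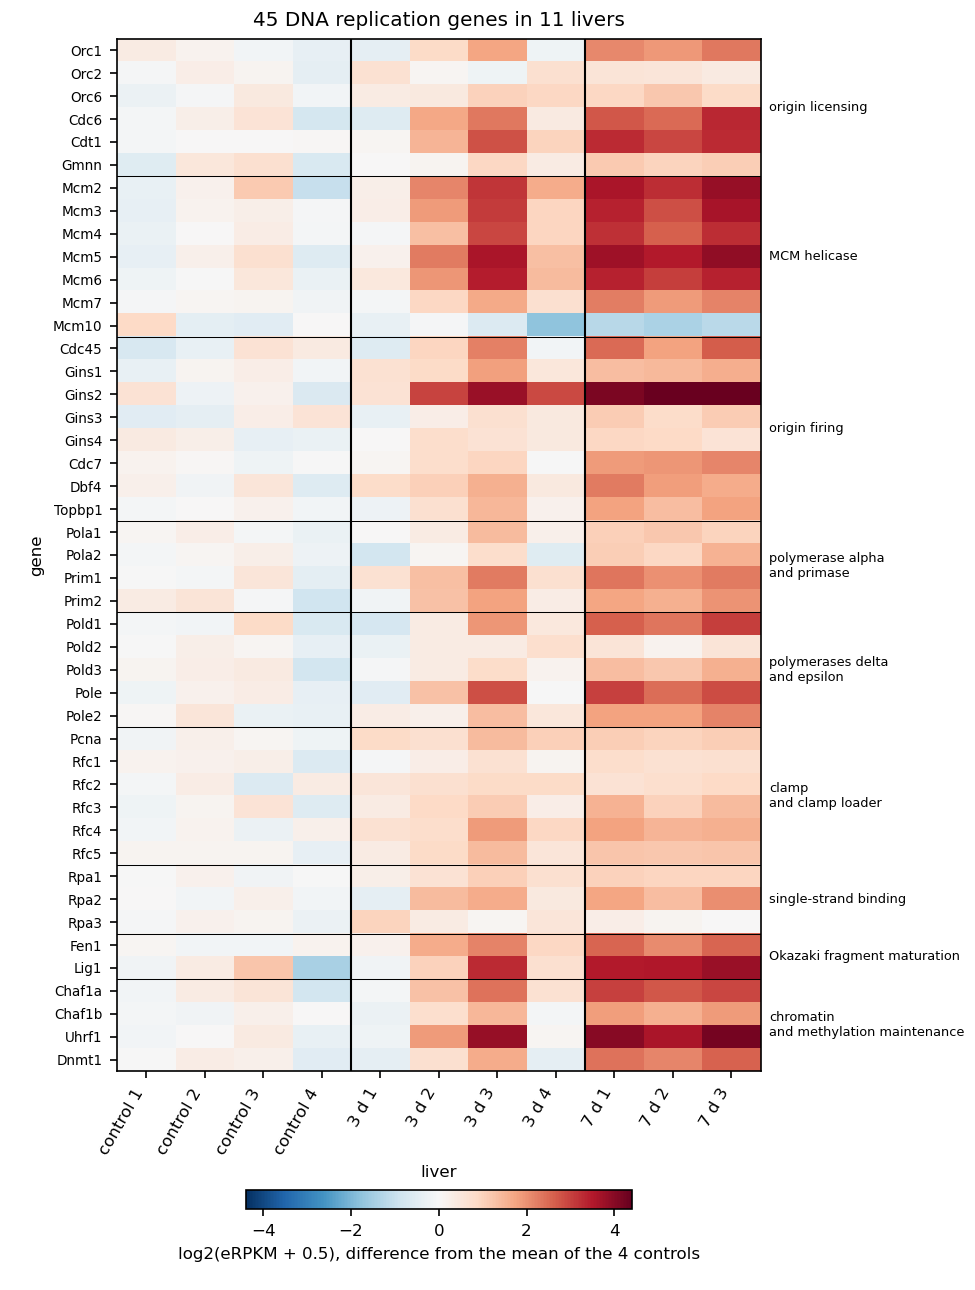
Heat map of the 45 members (rows, by function) in the 11 livers (columns), coloured by log2(eRPKM + 0.5) minus the mean of the 4 controls. The 7-day columns are red for nearly all members, 3-day liver 3 resembles them, 3-day liver 1 resembles the controls, and Mcm10 is blue at 7 days.

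**Figure D2:**
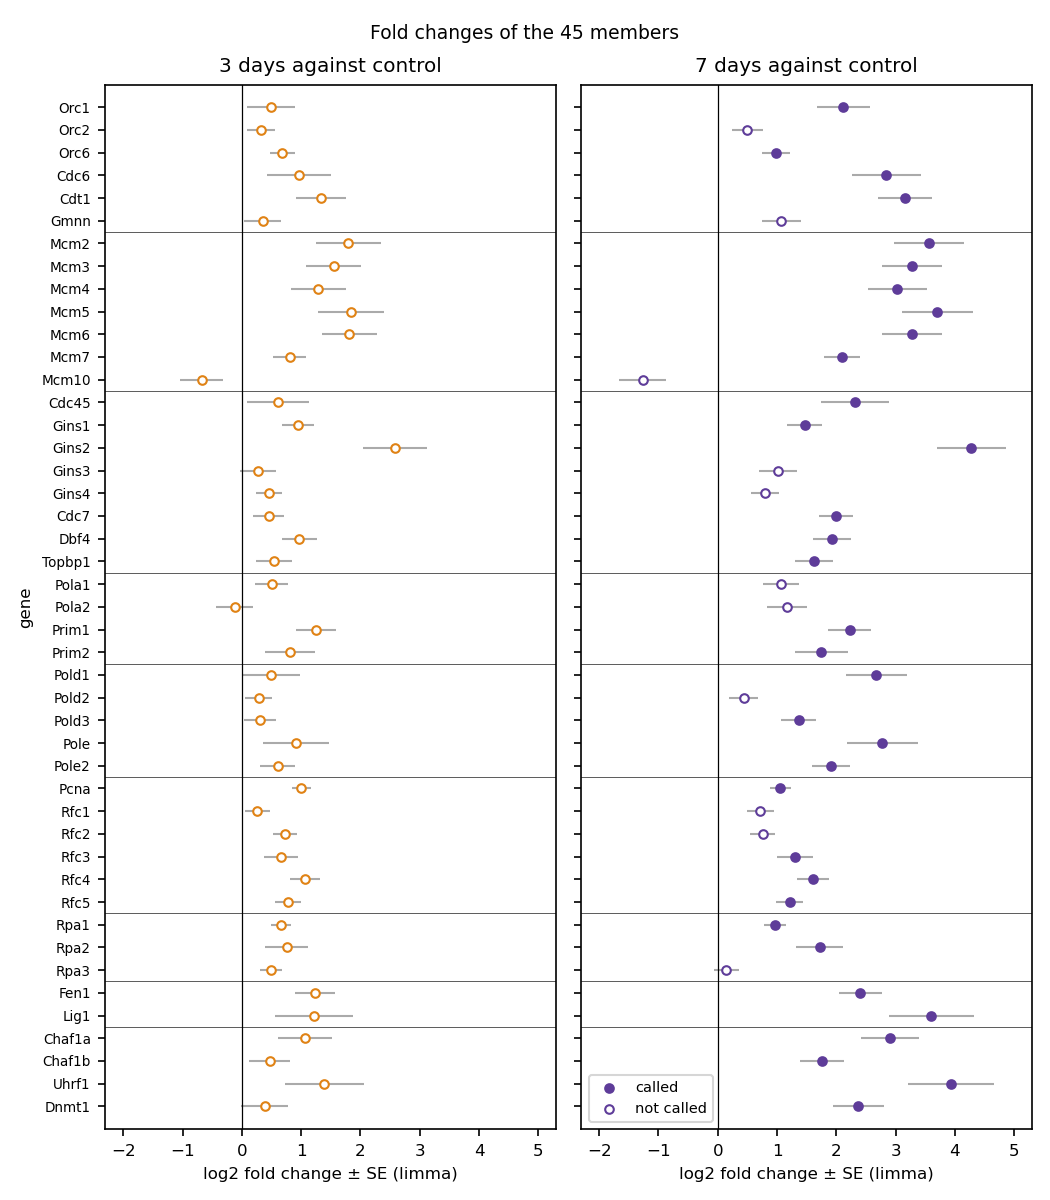
log2 fold change ± SE (limma) of each member at 3 days (left) and 7 days (right) against control, grouped by function, with filled points for called genes. No point is filled at 3 days and 34 are filled at 7 days.

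Origin licensing genes divided into those that rose and those that did not pass. Cdt1, the loading factor degraded in S phase, measured 1.81, 2.0, 1.99 and 2.03 eRPKM in controls 1 to 4, 2.12, 6.38, 16.6 and 4.29 in 3-day livers 1 to 4, and 23.2, 18.3 and 23.2 at 7 days. All 3-day livers lay above all controls, although liver 1 did so narrowly, and the change on the log2 scale, with its SE, came to 1.33 ± 0.42 (adjusted p = 0.214) at 3 days and 3.16 ± 0.46 (adjusted p = 0.000194) at 7 days. Cdc6, Orc1 and Orc6 also rose at 7 days. Gmnn, encoding geminin, the inhibitor of CDT1 and the licensing member with the highest mean, had 6.45 to 17.4 eRPKM in controls, 10.6 to 20.4 in 3-day livers and 21.2 to 24.1 in 7-day livers. Every 7-day liver was above every control for Gmnn, but the spread among controls was wide and the change was not called (1.07 ± 0.33, adjusted p = 0.0221). Orc2, a core subunit of the recognition complex, had 3.91 to 6.70 in controls, 4.61 to 8.99 in 3-day livers and 7.21 to 8.11 in 7-day livers (0.50 ± 0.26, adjusted p = 0.149). Orc2 shares 464 exon bases with Nif3l1 in GENCODE M1, and the library kit did not mark strand.

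The helicase subunits Mcm2 to Mcm7 rose together at 7 days, with log2 fold changes from 2.10 to 3.70. Their summed level was 22.7, 28.0, 34.7 and 21.6 eRPKM in controls, 28.2, 80.8, 187 and 55.8 at 3 days and 231, 174 and 245 at 7 days. Liver 1 at 3 days was inside the control range, liver 3 above 7-day liver 2, and livers 2 and 4 between. Mcm5 measured 1.35, 2.27, 3.34 and 1.11 eRPKM in controls, 2.19, 11.1, 28.0 and 5.50 at 3 days, and 31.1, 26.0 and 34.7 at 7 days (3.70 ± 0.60, adjusted p = 0.000445). Its reads in the shallowest control numbered 5, against 558 to 664 at 7 days. Mcm7 stood above the other subunits in controls (11.3 to 13.8) and changed least of the 6, to 47.9 to 62.7 at 7 days (2.10 ± 0.30, adjusted p = 0.000188), and its annotation overlaps exons of Cops6 and Ap4m1 and holds Mir25 and Mir93. Mcm6 had 2.31 to 4.43 in controls and 4.34, 12.9, 37.4 and 8.57 at 3 days, where liver 3 exceeded all 7-day livers (28.4 to 36.3).

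Mcm10 went the other way from the rest of the set. MCM10 is a scaffold that acts after the helicase is loaded and is not a subunit of the ring. It measured 28.2, 11.2, 10.7 and 15.4 eRPKM in controls, 12.02, 14.7, 9.83 and 4.12 at 3 days, and 6.24, 5.44 and 6.32 at 7 days. Every 7-day liver was below every control, and the change (-1.27 ± 0.39) did not pass (adjusted p = 0.0225; p = 0.0286 by an exact two-sided permutation test, the lowest that 3 against 4 livers allow). These values rest on 112 to 637 reads per control and 188 to 195 at 7 days, and no other gene shares its exons in GENCODE M1. It was called lower with quantile normalization, with 2 groups in the fit and without 3-day liver 4. Its RefSeq promoter window held no E2F match.

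Among origin firing genes 6 of 8 rose at 7 days. Gins2, a subunit of the GINS complex, measured 0.720, 0.170, 0.388 and 0 eRPKM in controls, 0.702, 5.67, 10.4 and 5.33 at 3 days, and 13.3, 15.2 and 15.1 at 7 days. The 4 controls held 3, 1, 1 and 0 reads, so the fitted changes (2.59 ± 0.54 with adjusted p = 0.0712 at 3 days; 4.27 ± 0.58 with adjusted p = 0.000125 at 7 days) depend on the pseudocount of 0.5. Without 3-day liver 1, Gins2 was called at 3 days, the sole member to be so. Of its 4097 exon bases, 2758 are shared with Gse1, and reads of the neighbours cannot be told apart. The partner subunits Gins3 (1.55 to 3.86 in controls, 4.53 to 5.78 at 7 days) and Gins4 (10.9 to 18.6 and 21.7 to 26.7) were not called, with log2 differences of 1.02 ± 0.32 (adjusted p = 0.0243) and 0.80 ± 0.23 (adjusted p = 0.0157). Cdc7, the kinase that fires origins, measured 0.537, 1.18, 1.399 and 0.466 at 3 days, beside 0.357 to 0.587 in controls, and reached 3.10, 3.22 and 3.88 at 7 days (1.99 ± 0.28, adjusted p = 0.000169).

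Of the polymerase genes, 6 of 9 rose at 7 days. Prim1, the catalytic primase subunit, had 2.02 to 4.46 eRPKM in controls, 4.98, 8.19, 16.1 and 5.15 at 3 days and 17.2, 13.4 and 16.3 at 7 days (2.22 ± 0.36, adjusted p = 0.000431). All 4 livers at 3 days were above all controls for Prim1. Pole, the catalytic subunit of polymerase epsilon on the leading strand, had 0.930 to 1.80 in controls, 0.793, 3.96, 12.6 and 1.32 at 3 days and 14.1, 9.61 and 12.7 at 7 days (2.78 ± 0.60, adjusted p = 0.00318). Here 3-day livers 1 and 4 were at the control level and liver 3 at the 7-day level. Not called were Pola1 and Pola2, the catalytic and the regulatory subunit of polymerase alpha (1.06 ± 0.30 with adjusted p = 0.0152 and 1.17 ± 0.34 with adjusted p = 0.0159), and Pold2, the accessory subunit of polymerase delta. Pold2 had 7.71 to 12.3 in controls and 11.4 to 15.3 at 7 days (0.44 ± 0.24, adjusted p = 0.175), while Pold1, its catalytic partner, rose from 1.08 to 4.05 in controls to 12.3 to 20.1 at 7 days (2.67 ± 0.51, adjusted p = 0.00141).

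Pcna, the gene of the sliding clamp, measured 42.3, 54.2, 49.9 and 41.3 eRPKM in controls, 84.4, 75.6, 124 and 97.7 at 3 days, and 100.2, 92.4 and 99.5 at 7 days. The groups of controls and 3-day livers did not overlap (1.0 ± 0.16, adjusted p = 0.0246; p = 0.0286 by the exact two-sided permutation test, which can go no lower), and Pcna was the single member with an adjusted p under 0.05 at 3 days. Between 3 and 7 days its difference was 0.05 ± 0.17 (adjusted p = 0.832). The ratio of Pcna to Mcm5 in eRPKM therefore moved from between 14.9 and 37.2 in controls to 38.6, 6.82, 4.45 and 17.8 in 3-day livers and to between 2.87 and 3.55 at 7 days. Among the clamp loader genes Rfc4 changed most (3.54 to 5.11 in controls, 13.02 to 16.04 at 7 days; 1.60 ± 0.27, adjusted p = 0.00065), and Rfc3 and Rfc5 also rose. Rfc1, the large subunit, had 6.71 to 12.6 and 16.9 to 18.3 (0.72 ± 0.23, adjusted p = 0.0267), and Rfc2 had 8.23 to 16.4 in controls, 18.5 to 23.1 in 3-day livers and 19.8 to 23.8 in 7-day livers (0.76 ± 0.22, adjusted p = 0.0153).

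The 3 genes of RPA, a trimer, did not change alike. Rpa1, the large subunit, rose from 15.4 to 19.6 eRPKM in controls to 33.1 to 34.7 at 7 days (0.97 ± 0.18, adjusted p = 0.00107), and Rpa2 from 4.75 to 6.10 to between 14.1 and 23.1 (1.72 ± 0.40, adjusted p = 0.00461). Rpa3 measured 15.6, 18.2, 17.7 and 13.4 in controls, 32.5, 21.0, 16.9 and 23.5 at 3 days, and 19.9, 17.6 and 16.3 at 7 days (0.15 ± 0.21, adjusted p = 0.605). Its order in the 3-day livers was the reverse of most members, with liver 1 highest and liver 3 lowest. Both Okazaki fragment genes rose. Fen1, the flap nuclease, measured 5.10 to 6.30 in controls, 6.58, 18.4, 27.6 and 11.1 at 3 days and 25.3 to 36.1 at 7 days (2.41 ± 0.36, adjusted p = 0.000258). Lig1, the ligase that joins the fragments, had 0.706, 1.25, 2.63 and 0 in controls, 0.723, 2.20, 12.7 and 1.72 at 3 days and 14.8, 14.9 and 18.2 at 7 days (3.605 ± 0.71, adjusted p = 0.0017). Only liver 3 of the 3-day livers exceeded all controls for Lig1. Fen1 shares 1909 of its 2422 exon bases with the lincRNA Gm10143.

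All 4 genes of chromatin and methylation maintenance rose at 7 days. Uhrf1, which reads hemimethylated DNA and recruits DNMT1, measured 1.30, 1.497, 2.10 and 1.06 eRPKM in controls, 1.20, 6.59, 27.0 and 1.59 at 3 days, and 30.9, 22.9 and 36.1 at 7 days (3.94 ± 0.73, adjusted p = 0.00108). It had the widest range of any member over the 3-day livers, 4.02 on the log2 scale, with livers 1 and 4 inside the control range and liver 3 inside that of 7 days. Dnmt1, the maintenance methyltransferase, followed with 2.91, 6.87, 13.6 and 2.93 at 3 days beside 2.66 to 5.11 in controls and 19.3 to 26.8 at 7 days (2.37 ± 0.43, adjusted p = 0.000923). Chaf1b, a CAF-1 subunit and the member of this group that changed least, had 0.812 to 1.24 in controls and 3.88 to 4.91 at 7 days (1.76 ± 0.37, adjusted p = 0.00245).

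**Figure D3:**
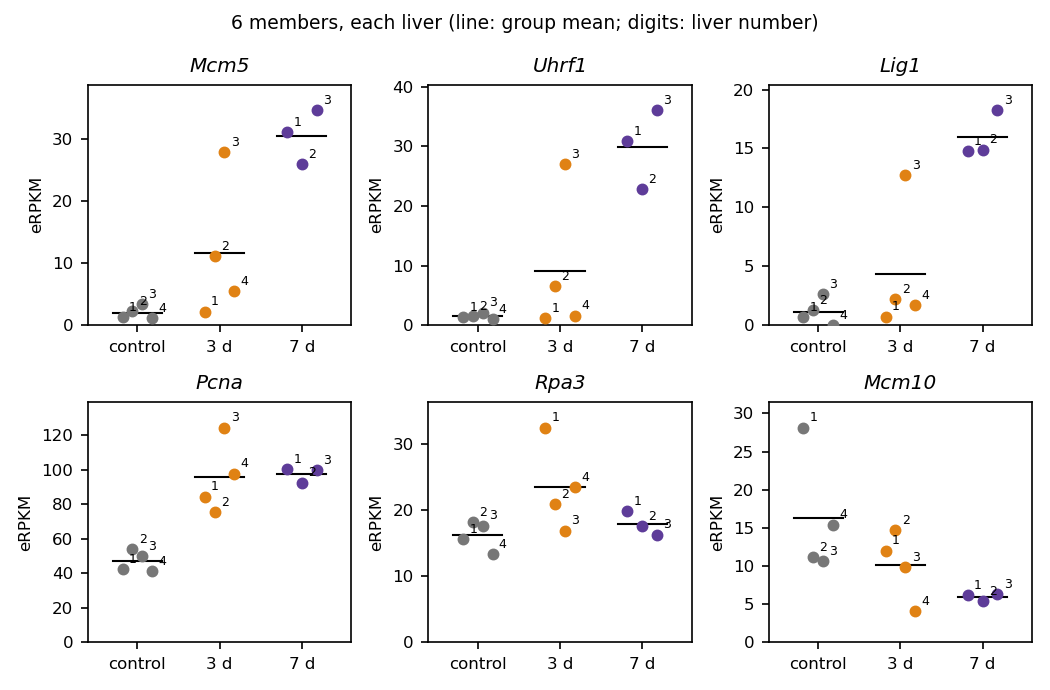
eRPKM of 6 members in each liver, with the group mean as a line, digits for liver number and a linear axis from 0. In Mcm5, Uhrf1 and Lig1 3-day liver 3 is near the 7-day livers and liver 1 near the controls. In Pcna all 3-day livers are above the controls, in Rpa3 the order is reversed, and in Mcm10 the 7-day livers are below the controls.

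The livers at 3 days differed from each other more than those of the other groups. The SD over livers on the log2 scale had a median over members of 0.73 at 3 days (n = 4), 0.32 in controls (n = 4) and 0.19 at 7 days (n = 3), whereas over all tested genes it was 0.34, 0.32 and 0.18. The SD was larger at 3 days than in controls for 37 of the 45 members, and larger than at 7 days for all 45. These counts were not made over all tested genes, whose median SD was also larger at 3 days than at 7 days. Livers were then compared by the median over members of the difference from the control mean on log2(eRPKM + 0.5). It was 0.01 in 3-day liver 1, 0.83 in liver 2, 1.63 in liver 3 and 0.49 in liver 4, against -0.08, 0.15, 0.24 and -0.31 in controls 1 to 4 and 1.77, 1.57 and 1.98 at 7 days. Liver 3 therefore lay inside the 7-day range, liver 1 inside the control range, and livers 2 and 4 between the groups. The median over all tested genes was -0.07, 0.03, 0.06 and 0.03 in the same 3-day livers.

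The order of the livers recurred across members. Liver 3 was the highest of the 4 for 39 of 45 members and liver 1 the lowest for 36, and the order 3, 2, 4, 1 was found in 27 members. How often these orders occur among all tested genes was not counted. Members above every control numbered 13 in liver 1, where 22.1% of all tested genes were, and 35 in liver 2 (25.3%). They numbered 42 in liver 3 (27.1%) and 24 in liver 4 (28.5%). Set against the remaining controls, controls 1 to 4 had 5, 10, 25 and 5 members above. The 24 of liver 4 was therefore no more than the 25 of control 3, which was set against fewer livers. Of the 34 members called at 7 days, 19 had reached the lowest 7-day liver in liver 3, 2 in liver 4, 1 in liver 2 and 0 in liver 1. These 34 were picked for being high at 7 days. The share over all genes called at 7 days was not counted, so the figure is not particular to replication genes. In 10 members all 3-day livers were above all controls (3.38% of all tested genes were), namely Cdt1, Mcm3, Gins1, Prim1, Pcna, Rfc2, Rfc4, Rfc5, Rpa1 and Fen1. Members share their livers, so these counts describe 4 mice and are not 45 independent observations.

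The spread was not even over the functions. In liver 3 the MCM group had a median of 3.08 and the Okazaki fragment genes 2.74, whereas the clamp and clamp loader group had 1.25 and the RPA genes 1.06. In liver 1 the clamp and clamp loader group was highest (0.45) and polymerases delta and epsilon were lowest (-0.29). Liver 4 was mixed. Gins2 was 2.91 above the control mean there and the MCM group 0.96, but chromatin and methylation maintenance stood at 0.00, with Uhrf1, Dnmt1, Chaf1b and Pole inside the control range, and Mcm10 at -1.76 had its lowest value of any liver.

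**Figure D4:**
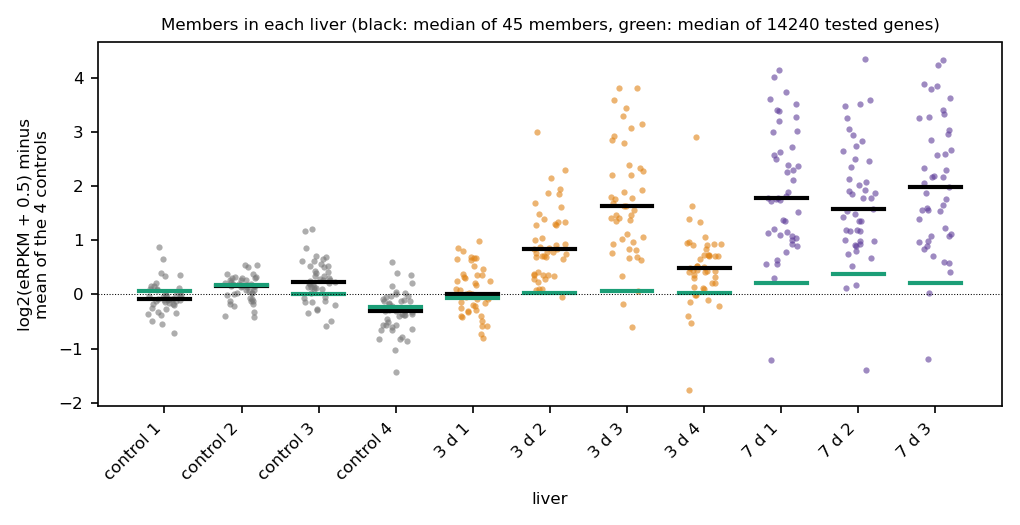
Each point is 1 of the 45 members in 1 liver, as log2(eRPKM + 0.5) minus the mean of the 4 controls, with black lines for the median of members and green lines for the median of all 14240 tested genes. The black lines of the 3-day livers run from 0.01 (liver 1) to 1.63 (liver 3), while the green lines of these livers stay between -0.07 and 0.06.

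Other measures of the same 3-day livers were set beside this order. Reads on genes were 2658114, 3624237, 3679166 and 3675869 in livers 1 to 4, so the liver with the lowest replication level was also the shallowest, while livers 2 to 4 were alike in depth. From highest to lowest, the 3-day livers were female (liver 3), male (liver 2), female (liver 4) and male (liver 1). Among controls the medians over members were 0.15 and 0.24 in the females (controls 2 and 3). They were -0.08 and -0.31 in the males (controls 1 and 4). Whether sex had a part was not tested. The 2 livers with the suffix MF were the 2 lowest, and whether it marks a batch is not given. Summed hepatocyte markers were 1984, 1682, 1633 and 1618 eRPKM in livers 1 to 4, highest in the liver lowest for replication, and neutrophil markers 8.08, 6.44, 14.95 and 12.2. Summed erythroid precursor markers were 26.6, 34.4, 24.5 and 22.7 eRPKM. Summed macrophage markers were 141, 158, 166 and 266 eRPKM, T lymphocyte markers 3.56, 3.83, 5.91 and 2.31, B lymphocyte markers 1.37, 3.34, 1.89 and 3.11, and cholangiocyte markers 84.5, 75.2, 40.5 and 64.8. Summed stellate cell markers were 98.9, 53.4, 48.6 and 89.6 eRPKM, and endothelial markers 172, 121, 130 and 219, both higher in livers 1 and 4 than in 2 and 3. Whether cell composition had a part in the order of the livers was not tested.

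Known YAP target genes, looked up after the values of the members had been seen, were given the same reading. Ctgf measured 15.3, 31.3, 34.2 and 15.5 eRPKM in 3-day livers 1 to 4, against 5.202 to 14.2 in controls and 87.3 to 103 at 7 days. Cyr61 had 26.8, 48.3, 53.4 and 27.6, against 5.76 to 14.4 and 90.5 to 91.4, and Amotl2 had 14.9, 46.0, 58.7 and 20.0, against 9.66 to 14.7 and 91.9 to 102. For all 3 genes liver 3 was highest, liver 2 next and liver 1 lowest. All 4 livers were above all controls, although liver 1 narrowly so for Ctgf and Amotl2. None of the 3 was called at 3 days (limma adjusted p = 0.0833 for Ctgf, 0.0117 for Cyr61 and 0.128 for Amotl2), when 0.0421% of all tested genes were called higher. A further target, Ankrd1, did not follow, being at or under 0.299 in every 3-day liver, below all controls (0.457 to 0.879), and at 15.4 to 20.1 at 7 days.

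Mitotic genes were read in the same way, because a liver can hold cells past S phase. Mki67, which marks cycling cells, had 1.33 to 6.72 eRPKM in controls, 2.39, 22.7, 37.2 and 8.24 at 3 days and 53.1, 49.3 and 32.1 at 7 days. Ccnb1, the mitotic cyclin, had 0.323 to 2.61, then 2.99, 16.2, 15.0 and 11.04, then 25.2, 20.9 and 13.7. The median of 8 mitotic genes above the control mean was -0.04, 2.51, 3.12 and 1.56 in 3-day livers 1 to 4, in the order of the replication set. The mitotic median was above that of the replication genes in 3-day livers 2 (2.51 against 0.83), 3 (3.12 against 1.63) and 4 (1.56 against 0.49). The same held in 7-day livers 1 to 3 (3.69, 3.64 and 2.97 against 1.77, 1.57 and 1.98). At 7 days all 8 mitotic genes were called higher (18% of all tested genes were), and at 3 days 0 were (0.0421%). In the 3-day comparison 7 of the 8 were higher at an unadjusted p under 0.05, against 7.86% of all tested genes.

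**Figure D5:**
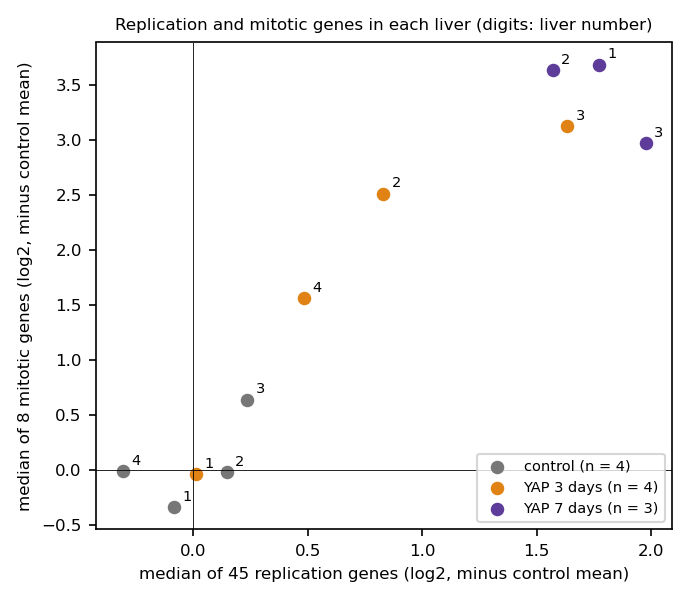
Each point is 1 liver, with the median of the 45 replication genes on the x axis and of the 8 mitotic genes on the y axis (log2 difference from the control mean). 3-day liver 1 sits among the controls, livers 4 and 2 between, and liver 3 beside the 7-day livers; the points share livers and library depth, and no correlation was tested.

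Between 3 and 7 days 6 members rose, namely Cdt1, Mcm7, Cdc7, Pold1, Pole2 and Dnmt1 (14.0% of all tested genes were called higher), and none fell. Both comparisons with control use the same 4 control livers, so this is the direct test of the difference. The median of the members was 1.08 (0.26 over all tested genes), and in 18 members every 7-day liver was above every 3-day liver, as in 31.3% of all tested genes. Cdc7 had the lowest adjusted p (1.54 ± 0.28, adjusted p = 0.00137) and Pold1 the largest called change (2.17 ± 0.51, adjusted p = 0.00637). Uhrf1 and Lig1 differed by more (2.55 ± 0.73, adjusted p = 0.0169, and 2.39 ± 0.71, adjusted p = 0.0207) but were not called. Without 3-day liver 3, 26 members were called, all of the 6 included, where 18.4% of all tested genes were, and the median was 1.39. The count was 2 without 3-day liver 1 or liver 2, 1 without liver 4 or without 7-day livers 1 or 2, 0 without 7-day liver 3, 0 among female livers and 21 by voom on recovered reads (19.1%).

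Beyond the members, 36 other genes of replication were tested, and 16 rose at 7 days, with none lower (18% of all tested genes were called higher and 5.77% lower). Their median was 0.88, beside 0.26 over all tested genes. The largest changes were those of Asf1b, a histone chaperone (3.74 ± 0.46, adjusted p = 6.42e-05), Chtf18, a subunit of an alternative clamp loader (2.95 ± 0.50, adjusted p = 0.000604), and Hells, a chromatin remodeller (2.93 ± 0.58, adjusted p = 0.00178). The lowest were those of Rbbp4, the small CAF-1 subunit (-0.38 ± 0.18, adjusted p = 0.107), Rnaseh2c, a subunit of RNase H2 (-0.37 ± 0.25, adjusted p = 0.26), and Pole4, a small subunit of polymerase epsilon (-0.26 ± 0.19, adjusted p = 0.301), none of which was called. At 3 days 0 of the 36 were called and 11 were higher at an unadjusted p under 0.05 (7.86% of all tested genes), while voom also called 0; their median in 3-day livers 1 to 4 was 0.12, 0.30, 1.05 and 0.15, again highest in liver 3.

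Among the 37 members with a promoter window, 15 of the 17 with an E2F match and 14 of the 20 without rose at 7 days, against 18% of all tested genes. The share that rose among all tested genes with the motif was not counted. The median log2 fold change was 2.37 with a match (1.02 to 3.94) and 1.41 without (-1.27 to 3.57). The members without a match included Mcm2, Chaf1a and Fen1, which rose by 2.41 or more, as well as Rpa3 and Mcm10. The figures for the CHR element were 2.05 with and 1.72 without, and for the CCAAT box 1.72 and 1.92. These are descriptions of a single set of genes, and no enrichment was tested.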

How the data were processed

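RNA-seq of 11 mouse livers (4 controls, 4 at 3 days and 3 at 7 days of YAP) was analysed from the deposited expression table. Per the labels and the submitters' processing notes, TruSeq v2 libraries of total RNA were aligned to mm9 with TopHat2 2.0.8, and reads in exons were counted with featureCounts 1.4.5-p1. The authors deposited RPKM values (eRPKM, scaled to exon length and library size), which are not counts. Columns with the authors' own DESeq2 comparisons (fold changes and p-values) were not used. Of 20893 rows, 20889 symbols were kept and repeated symbols were left out. All 177509 values above 0 were whole multiples of 1 read within 0.1 read, and these reads gave the depth.

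The 14240 genes reaching 0.5 eRPKM in 3 or more livers entered a limma 3.58.1 fit of log2(eRPKM + 0.5) over all 3 groups (moderated variances with a trend, in R 4.3.3), with Benjamini-Hochberg adjustment over all genes. The pseudocount understates changes of low genes. Calls needed a log2 fold change beyond 0.5 in size together with an adjusted p under 0.01. Single members were also compared by exact two-sided permutation tests over livers. Over the 135 tests of members the lowest Benjamini-Hochberg value was 0.0821, so none of these passes after adjustment. The fit was tested on simulated data with the same spread in every group and changes at 7 days alone. That setting does not cover the wide 3-day spread or changes at 3 days. Libraries are separate mice as labelled. For each gene the fit pooled the spread within all 3 groups, so each SE and p-value also carries the spread of the group not compared. The groups were not alike in spread, with a median SD of members of 0.73 at 3 days, 0.32 in controls and 0.19 at 7 days. The SE at 7 days against control is therefore not the spread of those groups alone. With 2 groups in the fit, 36 members were called higher at 7 days. Counting error limits low genes.

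Members and lists were chosen with earlier results of these data known. Named were, in each function, the members with the highest mean and the largest and smallest 7-day change, all members not called at 7 days, the 6 with the widest 3-day range, and the 3 largest and 3 smallest of the other replication genes. Dnmt1, Cdc7, Pold1 and other members outside this rule were named after their values were seen, as were the YAP targets. Exon overlaps came from GENCODE M1 on mm9 and promoters from RefSeq. Alternatives were other pseudocounts (1 and 0.1), other filters (none, or a mean of 1 eRPKM), size factors, quantile normalization, 2 groups in the fit, no trend, the replicate number as a block, depth as a covariate, female livers, voom on recovered reads, adjusted p under 0.05, and leaving out each liver.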

Additional observations from a re-analysis of the deposited data

Results flagged for a closer look

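In 54 sets of 4 livers (26 named members and the median over members, in controls and at 3 days) a liver stood far from the other 3 in 2 sets, and chance alone would give about 1 in 20. For Cdt1 in controls the gap of control 1 (1.81 eRPKM, beside 1.99 to 2.03) was 0.835 of the range, on a narrow range. For Rfc1 in controls the gap of control 4 (6.71 eRPKM, beside 11.7 to 12.6), the shallowest library, was 0.889 of the range. The difference between 3 and 7 days passed the test of the difference itself for 6 of the 45 members, a share near that of all tested genes called higher (14.0%), with log2 values of 1.82 for Cdt1, 1.29 for Mcm7, 1.54 for Cdc7, 2.17 for Pold1, 1.30 for Pole2 and 1.98 for Dnmt1.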

How the results depend on the processing

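Members called higher at 7 days numbered 34, and 12 with depth as a covariate, 20 in female livers and 22 to 36 when 1 liver was left out, lowest without 7-day liver 3. No member was lower, but 1 (Mcm10) was with quantile normalization, 2 groups in the fit or adjusted p under 0.05, and 0 or 1 when 1 liver was left out. At 3 days the count of 0 became 1 in female livers, with adjusted p under 0.05, and in the range of 0 to 1 when 1 liver was left out. Between 3 and 7 days the 6 calls became 2 with size factors, quantile normalization or 2 groups, 1 with depth, 0 in female livers, 21 with voom, 25 with adjusted p under 0.05 and 0 to 26 when 1 liver was left out. Deviations from the group means correlated weakly, at -0.222 to 0.269 between same-numbered livers and -0.275 to 0.238 between livers of different number. Between 3-day and control livers, pairs of the same sex correlated at 0.148 to 0.269 and pairs of different sex at -0.275 to -0.062, whatever their numbers. The labels do not say whether the numbers pair the livers, and weak correlations cannot exclude it. With the replicate block the counts were 0 at 3 days, 33 at 7 days and 3 between them.

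The median change of members at 7 days (1.76) was 2.10 with a pseudocount of 0.1, 1.54 with size factors, 1.30 with quantile normalization and 2.07 with voom, and 1.70 to 1.90 when 1 liver was left out. The median of all genes moved from 0.26 to 0.03 with size factors and to -0.08 with quantile normalization. The median change of members between 3 and 7 days (1.08) was 0.85 with size factors, 0.62 with quantile normalization and 0.87 in female livers, and 0.91 to 1.39 when 1 liver was left out. The other replication genes called at 7 days (16) numbered 10 with quantile normalization, 4 with depth, 7 in female livers and 7 to 20 when 1 liver was left out. At 3 days their 0 became 1 with adjusted p under 0.05, and 0 to 1 when 1 liver was left out. Between 3 and 7 days 4 of the 36 other replication genes were called higher, against 14.0% of all tested genes. This count became 1 with a pseudocount of 0.1, no filter, size factors, quantile normalization, 2 groups, the replicate block or depth. It was 2 with a mean of at least 1 eRPKM, 0 in female livers and 10 with voom (19.1% of all tested genes). With adjusted p under 0.05 it was 14, a setting whose share over all tested genes was not counted. It was 1 to 15 when 1 liver was left out.

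The median in 3-day liver 1 (0.01) changed sign, from -0.083 to 0.10 when 1 control was left out; those of livers 2, 3 and 4 did not. Uncalled values that changed sign at 7 days were Orc2 (-0.14) and Pold2 (-0.033) with quantile normalization and Rpa3 with size factors (-0.12), quantile normalization (-0.22) and female livers (-0.006). Between 3 and 7 days Pcna had -0.19 with size factors, -0.0485 with depth and -0.18 in female livers, with -0.051 to 0.19 when 1 liver was left out, and at 3 days Dnmt1 had -0.030 to 0.65 when 1 liver was left out. The cause of these changes was not tested. Depth limits low genes, such as Gins2, Cdc6 and Lig1 with 0 reads in control 4.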
